A study of Mus musculus with 20 samples.

Results

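The 10 genes described here encode the enzymes that turn glucose 6-phosphate into pyruvate and lactate: Gpi1, Pfkm, Aldoa, Tpi1, Gapdh, Pgk1, Pgam2, Eno3, Pkm and Ldha. They were chosen by gene symbol, 10 of 35579 genes with a value. Their RNA was measured by sequencing in skeletal muscle and skin of the left hindlimb of wild-type C57BL/6J mice 70 days after treatment. The FLASH group (4 libraries per tissue) received an electron dose of 35 Gy from a linear accelerator in its ultra-fast mode, the CONV group (3 libraries per tissue) the same dose in the conventional mode, and the sham group (3 libraries per tissue) no radiation. The 20 libraries held 10198699 to 12336479 estimated counts in muscle and 24396463 to 33250762 in skin. Nothing in the labels ties each replicate to an animal of its own. The p-values therefore reflect only how these samples scatter, and that scatter may be technical. The library names of the records carry matching numbers within each group in muscle and skin, so both tissues may come from the same animals. The main comparisons between tissues treated all libraries as independent.

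Glycolysis splits glucose in the cytosol and yields ATP without oxygen, and fast-twitch muscle fibres depend on it for short bursts of work. Its flux is set mainly at phosphofructokinase, whose muscle form is Pfkm. Several of its steps have a muscle form encoded by a gene of its own (Pfkm, Pgam2, Eno3), whereas Pkm gives 2 proteins, M1 and M2, by using either of 2 exchangeable exons, and Aldoa is read from more than 1 start site. Lactate dehydrogenase A, from Ldha, reduces pyruvate to lactate and so restores the NAD that Gapdh needs.

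Both tissues carried their defining markers, but some libraries stood apart. All 15 fast muscle markers were detected in every muscle library, with a summed level of 69920 to 116300 CPM (counts scaled to a common library size, here by the trimmed mean of M values, TMM, within a tissue), and all 12 keratinocyte markers in every skin library. In muscle 1 gene, Lars2, took 34.6% to 41.3% of all counts. Fast muscle markers summed to 36250 CPM in skin FLASH replicate 2 and to 36440 CPM in skin sham replicate 1, against 106.1 to 4849 CPM in the other 8 skin libraries. In muscle FLASH replicate 4 the hair shaft markers (15 listed, Krt85 not matched) summed to 105 CPM, against at most 12.08 CPM in the other muscle libraries. Counts of 10 of 12 keratinocyte markers were also present in that library. In 7 of the 20 records (5 muscle, 2 skin) the file carried the library name of another record. These were FLASH replicates 1, 2 and 3 and sham replicates 2 and 3 of muscle, and FLASH replicate 1 and sham replicate 3 of skin. No CONV file was affected, so the comparison of the 3 CONV libraries with the other 7 of a tissue does not depend on the naming. All skin libraries were labelled batch 1 and all muscle libraries batch 2, and effects of tissue and of batch cannot be told apart.

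The sequences that tell apart the products of 2 of these genes are shown because the shares of these products are described below. The 2 exchangeable exons of Pkm lie next to each other on the plus strand of chromosome 9 (GENCODE M21, GRCm38), the M1 exon at chr9:59675029-59675195 and the M2 exon at chr9:59675568-59675734. Each is 167 bases long and coding, and they are identical at 103 positions (61.7%) and differ at 64, which are in capitals.
Pkm M1 exon: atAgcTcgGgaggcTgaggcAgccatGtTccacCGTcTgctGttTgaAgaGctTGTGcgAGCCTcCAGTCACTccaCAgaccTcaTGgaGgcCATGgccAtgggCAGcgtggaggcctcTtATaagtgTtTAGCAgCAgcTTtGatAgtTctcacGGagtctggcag
Pkm M2 exon: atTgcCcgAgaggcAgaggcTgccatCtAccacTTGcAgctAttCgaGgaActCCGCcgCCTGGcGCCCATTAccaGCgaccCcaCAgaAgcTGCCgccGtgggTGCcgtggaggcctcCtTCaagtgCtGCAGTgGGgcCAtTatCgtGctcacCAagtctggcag

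A pair of start regions of Aldoa on the minus strand of chromosome 7 are shown from the RefSeq promoter table (GRCm38.p6), each as 300 bases around a start. The upstream one, chr7:126800398-126800697, holds the start of transcript Aldoa-203, and the downstream one, chr7:126799205-126799504, holds the start of Aldoa-201. Capitals mark matches to the E-box letters CANNTG, which muscle regulatory factors of the MyoD family bind.
Aldoa upstream start: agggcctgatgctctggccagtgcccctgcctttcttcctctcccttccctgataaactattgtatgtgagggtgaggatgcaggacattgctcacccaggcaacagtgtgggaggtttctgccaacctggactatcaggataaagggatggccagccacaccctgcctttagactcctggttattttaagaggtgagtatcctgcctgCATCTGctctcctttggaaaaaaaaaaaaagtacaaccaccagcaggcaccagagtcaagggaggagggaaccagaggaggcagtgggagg
Aldoa downstream start: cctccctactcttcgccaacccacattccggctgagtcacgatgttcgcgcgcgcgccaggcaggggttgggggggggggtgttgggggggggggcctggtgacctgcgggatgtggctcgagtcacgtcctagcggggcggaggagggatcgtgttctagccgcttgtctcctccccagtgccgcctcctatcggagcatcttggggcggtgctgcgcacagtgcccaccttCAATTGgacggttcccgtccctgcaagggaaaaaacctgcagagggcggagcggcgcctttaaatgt

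The promoters of Eno3 (chromosome 11, plus strand, chr11:70656926-70657225) and Pgam2 (chromosome 11, minus strand, chr11:5803747-5804046) are shown as those of the muscle forms of enolase and phosphoglycerate mutase, with the same letters in capitals.
Eno3: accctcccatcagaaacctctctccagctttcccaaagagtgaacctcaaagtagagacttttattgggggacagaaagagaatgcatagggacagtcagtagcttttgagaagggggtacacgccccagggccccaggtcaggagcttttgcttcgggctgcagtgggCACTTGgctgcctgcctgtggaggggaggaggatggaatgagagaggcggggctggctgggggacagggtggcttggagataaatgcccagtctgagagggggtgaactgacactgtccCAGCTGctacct
Pgam2: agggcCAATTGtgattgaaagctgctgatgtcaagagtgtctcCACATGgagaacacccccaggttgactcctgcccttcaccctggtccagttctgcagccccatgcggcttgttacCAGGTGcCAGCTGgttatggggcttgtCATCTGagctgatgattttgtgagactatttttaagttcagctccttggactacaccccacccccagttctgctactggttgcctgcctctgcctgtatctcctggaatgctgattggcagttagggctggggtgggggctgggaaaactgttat

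The 10 genes had 17 promoter entries. The letters CANNTG were found in 14 of the 17, against 72.3% of all 32851 promoters of the same length, and Pgam2 held 5 matches. The letters TATAAA were in 0 of the 17 and in 13.6% of all promoters. The letters ACGTG, the core of the motif of the hypoxia factor HIF, were in 8 of the 17, among them Ldha with 5 matches in 1 promoter, against 19.6% of all promoters. All motifs were searched on both strands, and ACGTG overlaps CANNTG where the letters are CACGTG.

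In muscle, the level of 9 of the 10 genes was lower in CONV than in the other 7 libraries on the fitted scale, most of all that of Pfkm, but none passed the test across all genes. Pfkm had 1148, 1017 and 928.5 CPM in CONV, against 1321, 1375, 1575 and 1244 CPM in FLASH and 1479, 1493 and 1481 CPM in sham. All 3 CONV libraries lay below all 7 others, which held for 2.47% of the 13080 genes tested in muscle and for Pfkm alone among the 10. Pfkm averaged 1031 ± 110 CPM in CONV (SD, n = 3) and 1424 ± 115 CPM in the others (n = 7). The log2 fold change was -0.47 ± 0.11 (SE; edgeR's quasi-likelihood test, adjusted p = 0.139). Of the 10 genes 0 passed in this comparison, against 0.0612% of all genes tested (8 of 13080), and 5 of the 10 had an unadjusted p under 0.05, against 11.9% of all genes. DESeq2 called 2 of them, Pfkm (adjusted p = 0.000762) and Gapdh (adjusted p = 0.039), against 1.15% of all genes. In bulk tissue, fewer cells of a type and less RNA per cell cannot be told apart.

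Gapdh oxidizes glyceraldehyde phosphate and makes NADH. It had 2286, 1911 and 1995 CPM in CONV, against 2499, 2677, 2845 and 2205 CPM in FLASH and 3100, 2622 and 2714 CPM in sham. The CONV libraries lay below all sham libraries, and FLASH replicate 4 lay within the CONV range. The log2 fold change of CONV against the other 7 was -0.37 ± 0.12 (edgeR, adjusted p = 0.229). Eno3, the muscle form of enolase, had 1149, 1064 and 944 CPM in CONV, against 1260, 1466, 1417 and 1138 CPM in FLASH and 1615, 1300 and 1326 CPM in sham. The CONV libraries lay below all sham libraries, and CONV replicate 1 lay just above the lowest FLASH library. Its log2 fold change was -0.37 ± 0.12 (edgeR, adjusted p = 0.230).

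Aldoa, which cleaves fructose bisphosphate, had 4843, 3674 and 3664 CPM in CONV, against 4260, 4800, 5112 and 4192 CPM in FLASH and 5541, 4951 and 4872 CPM in sham. CONV replicate 1 lay within the range of FLASH and just under the sham libraries, and the other 2 CONV libraries lay below all others. Its log2 fold change was -0.25 ± 0.13 (edgeR, adjusted p = 0.464). Ldha had 659.6, 585.2 and 513.7 CPM in CONV, against 644.7 to 783 CPM in FLASH and 692.9 to 888.7 CPM in sham. Pkm, the pyruvate kinase that makes ATP in the last step before pyruvate, had 1187, 892.2 and 916.9 CPM in CONV, against 1128 to 1330 CPM in FLASH and 1162 to 1458 CPM in sham. The log2 fold change of Ldha was -0.32 ± 0.12 (edgeR, adjusted p = 0.312) and that of Pkm -0.31 ± 0.12 (adjusted p = 0.328), and the CONV and other libraries of both overlapped.

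The remaining 4 genes overlapped more widely between the groups. Pgam2, which moves the phosphate of phosphoglycerate, had 353.2 to 447.2 CPM in CONV and 375.1 to 535.5 CPM in the other 7 libraries. Gpi1, which interconverts glucose and fructose phosphates, had 285.7 to 369.6 CPM in CONV and 316.7 to 427.7 CPM in the others. Tpi1, which interconverts the 2 triose phosphates, had 26.7 to 63.45 CPM in CONV and 39.38 to 76.19 CPM in the others. Pgk1, which makes the first ATP of the pathway from bisphosphoglycerate, had 245.3, 214.2 and 227.3 CPM in CONV against 199.7 to 253.3 CPM in the others. Its CONV libraries lay among the others, and its log2 fold change was 0.04 ± 0.10 (edgeR, adjusted p = 0.920). The adjusted p of Pgam2, Gpi1 and Tpi1 was 0.532, 0.573 and 0.707.

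**Figure D1:**
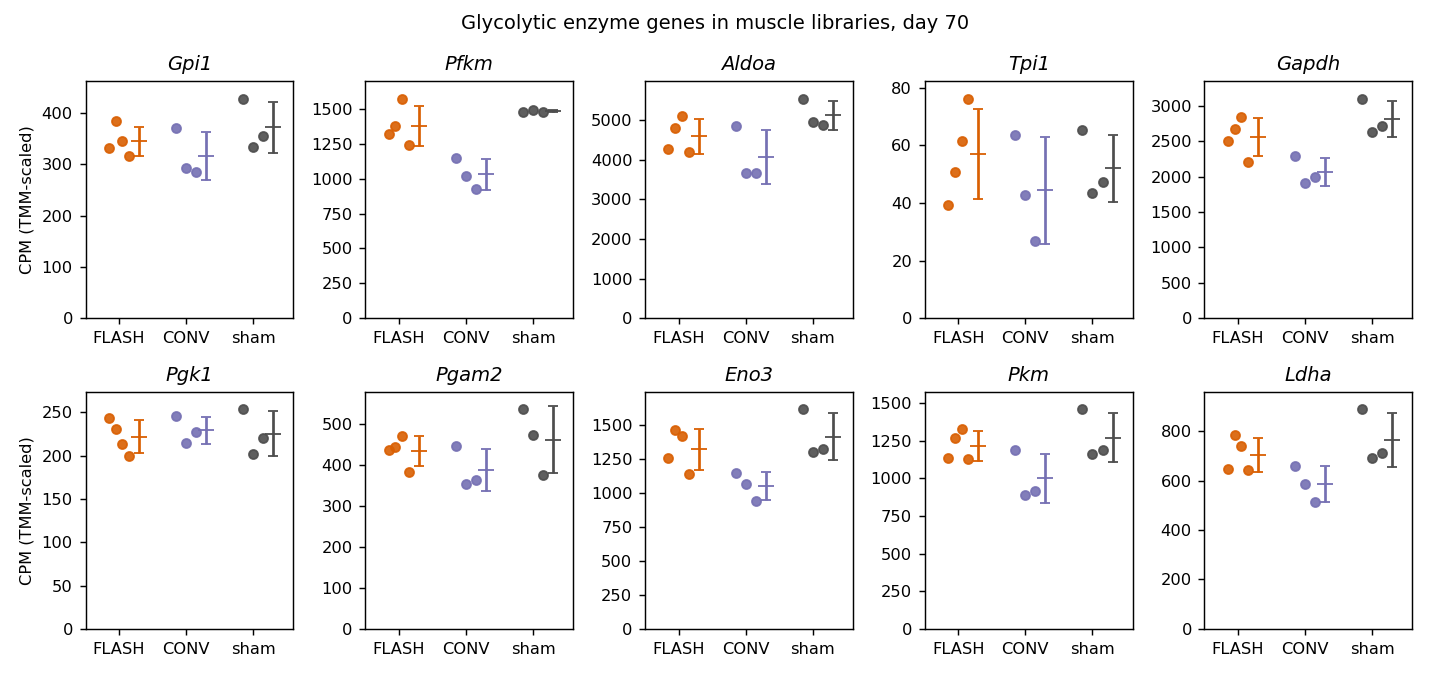
Level of each gene in the 10 muscle libraries in CPM on a linear axis that starts at 0, by group. Points are libraries, and bars beside them are mean ± SD (n = 4 FLASH, 3 CONV, 3 sham). The CONV points of Pfkm, 928.5 to 1148 CPM, lie under all others, whereas those of Pgk1 lie among them.

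The median log2 fold change of the 10 genes was -0.31 for CONV against the other 7, beside 0.01 for all genes tested. Against sham alone the CONV values were alike: Pfkm had a log2 fold change of -0.53 ± 0.13 (edgeR, adjusted p = 0.268), Gapdh -0.45 ± 0.14 (adjusted p = 0.366), Eno3 -0.43 ± 0.14 (adjusted p = 0.378) and Ldha -0.38 ± 0.14 (adjusted p = 0.406). The CONV libraries lay below all sham libraries for 5 of the 10 (Pfkm, Aldoa, Gapdh, Eno3 and Ldha), against 7.76% of all genes. By edgeR 0 of the 10 passed, against 0.00765% of all genes, and 6 had an unadjusted p under 0.05, against 10.0% of all genes. DESeq2 called Pfkm (adjusted p = 0.00573), against 0.375% of all genes. With the files assigned by library name edgeR called Eno3 (log2 fold change -0.51, adjusted p = 0.0467), against 1.25% of all genes. The comparisons of CONV with sham, of FLASH with sham and of FLASH with CONV share libraries, so their values are given side by side only.

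With the files grouped by record, no gene of the 10 passed between FLASH and sham muscle. The log2 fold changes of FLASH against sham ran from -0.16 ± 0.14 for Aldoa to 0.13 ± 0.32 for Tpi1, with a median of -0.10. These values depend on the file naming. The median was -0.20 with files assigned by library name. Without the disagreeing libraries it was -0.42, but only sham replicate 1 and FLASH replicate 4 then remained, a single library per group. FLASH replicate 4 was the library with hair shaft markers. By library name Eno3 averaged 1256 ± 83.0 CPM in FLASH (SD, n = 4) and 1499 ± 103 CPM in sham (n = 3). By edgeR 0 of the 10 passed, 0% of all genes passed, and 0 of the 10 had an unadjusted p under 0.05, against 2.5% of all genes. DESeq2 called 0 of the 10, against 0.00765% of all genes. The test misses the threshold here, which does not show that the groups are equal. For Pfkm the level was 1379 ± 141 CPM in FLASH (SD, n = 4) and 1484 ± 7.93 CPM in sham (n = 3).

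FLASH against CONV gave positive values for 9 of the 10 genes, with a median log2 fold change of 0.27. By library name the median was 0.20. Without the disagreeing libraries it was 0.11, with Pfkm at 0.27, but FLASH was then replicate 4 alone, the library with hair shaft markers. With all files by record Pfkm averaged 1379 ± 141 CPM in FLASH and 1031 ± 110 CPM in CONV, without overlap (4.48% of all genes had CONV below all FLASH libraries), with a log2 fold change of 0.42 ± 0.12 (edgeR, adjusted p = 0.400). By edgeR 0 of the 10 passed, against 0.00765% of all genes, and 3 had an unadjusted p under 0.05, against 8.30% of all genes. DESeq2 called Pfkm (adjusted p = 0.0389), against 0.313% of all genes.

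**Figure D2:**
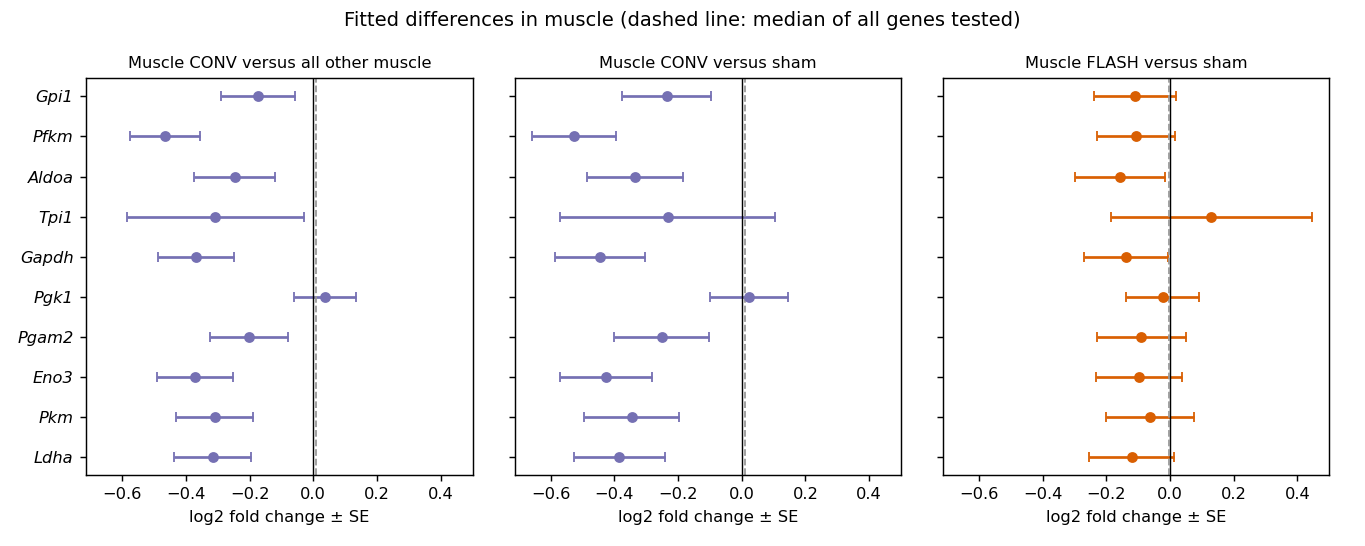
Log2 fold change ± SE of each gene in 3 muscle comparisons from edgeR, with the median of all genes tested as a dashed line near 0. For CONV the values of 9 genes lie left of 0, down to -0.53 for Pfkm against sham, and for FLASH against sham they lie between -0.16 and 0.13.

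These values depended in part on the scaling, and markers of fibre and cell types are given beside them. With library totals in place of TMM the median of all genes tested shifted to 0.10 for CONV against the other 7, and the value of Pfkm was then -0.37, with 9 of the 10 genes still below 0. In the authors' TPM, a length-corrected share of all transcripts, which carry no such scaling, Pfkm had 686.2, 586.2 and 499.4 in CONV, against 646.3 to 733.4 in FLASH and 677.7 to 742.2 in sham, and CONV replicate 1 lay within the others. The summed level of the 9 slow muscle markers was 81.85, 4778 and 1918 CPM in CONV replicates 1, 2 and 3, against 38.62 to 1005 CPM in FLASH and 65.78 to 536.2 CPM in sham. All 9 were detected in every muscle library. In CONV against the other 7 all 9 had a log2 fold change above 0, with a median of 2.86, and 0 passed by edgeR. CONV replicate 1, with slow markers no higher than in the other groups, had the lowest Pfkm level in CPM outside the other 2 CONV libraries, though not in TPM. The fast muscle markers summed to 69920 to 96740 CPM in CONV, 82430 to 104300 CPM in FLASH and 86220 to 116300 CPM in sham, and 14 of the 15 had a log2 fold change below 0 in CONV against the other 7, with a median of -0.25. Of other cell types, 11 of 12 adipocyte markers lay above 0 in that comparison (median 0.64), as did all 10 macrophage markers tested (0.36), whereas all 10 fibroblast markers lay below 0 (-0.54). Adipocyte markers summed to 426.9 to 727.4 CPM in CONV, 257.3 to 527 CPM in FLASH and 297 to 419.1 CPM in sham. Macrophage markers summed to 67.12 to 88.57 CPM in CONV, 29.22 to 86.33 CPM in FLASH and 28.14 to 79.53 CPM in sham. Fibroblast markers summed to 398 to 465 CPM in CONV, 416.5 to 979.3 CPM in FLASH and 425.4 to 748.5 CPM in sham. The adipocyte sums of CONV lay above all those of sham and overlapped those of FLASH. For macrophage and fibroblast markers the ranges of all groups overlapped. All of these markers had counts in every muscle library. FLASH replicate 4, with hair shaft markers, was the lowest FLASH library for 9 of the 10 genes (all but Tpi1), and without it the value of Pfkm was -0.50 (edgeR, adjusted p = 0.109). The part of fibre type and of other cells in the levels of the 10 genes was not tested.

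The transcripts of Aldoa differed in their shares between CONV and the other muscle libraries. Aldoa-201, which begins at the downstream start (position 126799254), took 32.3%, 32.1% and 35.1% of Aldoa's estimated counts in CONV, against 21.2%, 22.1%, 19.2% and 26.0% in FLASH and 20.4%, 21.5% and 19.3% in sham. Aldoa-203, which begins at the upstream start (position 126800447), took 33.7%, 34.2% and 31.2% in CONV, against 47.1%, 44.9%, 47.4% and 40.7% in FLASH and 44.7%, 45.8% and 46.2% in sham. For both transcripts the CONV libraries lay outside the range of all 7 others, in CONV replicate 1 as in the other 2. Aldoa-210, which begins between the 2 starts (position 126800046), took 32.6% ± 0.277 in CONV, 31.8% ± 0.975 in FLASH and 33.0% ± 1.25 in sham (SD). FLASH replicate 4, the muscle library with hair shaft markers, lay nearest to CONV for Aldoa-201 and Aldoa-203. In skin Aldoa-201 took 46.95% in FLASH replicate 2 and 53.0% in sham replicate 1, the libraries rich in fast muscle markers. It took 72.3% to 82.5% in the other skin libraries. The part of cell types in these shares was not tested.

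As a level, gene CPM times share, Aldoa-203 averaged 1344 ± 256.5 CPM in CONV, 2072 ± 299 CPM in FLASH and 2332 ± 125 CPM in sham, and Aldoa-201 averaged 1344 ± 199 CPM in CONV, 1009 ± 84.7 CPM in FLASH and 1046 ± 95.7 CPM in sham. The mean of the upstream transcript was lower in CONV than in both other groups, and that of the downstream one was higher. These shares are a description with no test, and Aldoa was singled out after its values were seen. Transcripts were counted if they had a mean muscle share of at least 3% and left at least 3% to the gene's other transcripts. Their genes had at least 100 counts in every muscle library. Of the 10 genes, 7 had such transcripts, 20 in all. Of these 20, 5 had CONV shares all above or all below the other 7 libraries, against 2.74% of 12416 such transcripts of all genes. The other 3 were the leading transcript of Eno3 (63.3% in CONV, 66.8% in the others), the leading one of Gpi1 (64.0% in CONV, 69.9% in the others) and a Gpi1 transcript with a retained intron (9.57% in CONV, 6.51% in the others). Of the transcripts without such overlap, differences of at least 10 percentage points were seen for the 2 of Aldoa (10% of the 20) and for 77 of all genes (0.62% of the 12416). Shares within a gene depend on each other, so the 5 transcripts are not independent. Shares are kallisto's division of reads between transcripts that share most of their sequence.

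The shares of the 2 forms of Pkm overlapped between the muscle groups. Pkm-202, with the M1 exon, took 58.5% ± 0.867 of the counts of Pkm-202 and Pkm-201 together in FLASH muscle (SD, n = 4), 58.4% ± 1.94 in CONV muscle (n = 3) and 58.8% ± 1.65 in sham muscle (n = 3). The 10 muscle libraries lay between 56.6% and 60.5%. In skin the same share was 9.23% to 58.1% in FLASH, 8.48% to 22.0% in CONV and 11.96% to 65.5% in sham. The 2 skin libraries rich in fast muscle markers had 58.1% and 65.5%, and the other 8 had at most 35.1%. The M1 form is known from adult muscle and the M2 form from proliferating and many other cells. The 2 transcripts also differ in the lengths of their first and last exons, so the estimate does not rest on the exchangeable exons alone.

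**Figure D3:**
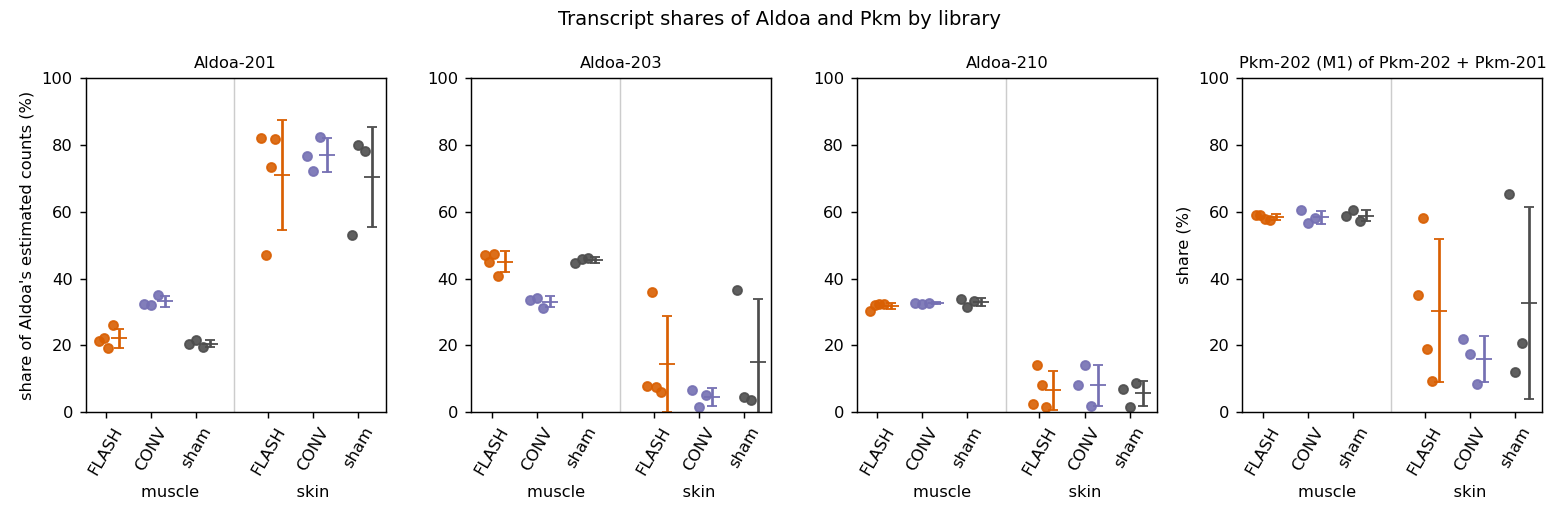
Share of Aldoa's estimated counts taken by each of 3 transcripts, and share of Pkm-202 (M1) in the sum of Pkm-202 and Pkm-201 (M2), in percent, for muscle (left in each panel) and skin (right). Points are libraries, and bars are mean ± SD. In muscle the CONV points of Aldoa-201 lie at 32.1% to 35.1%, above all others, and those of Aldoa-203 at 31.2% to 34.2%, below all others.

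Between tissues, all 10 genes were higher in sham muscle than in sham skin once libraries were scaled by TMM. All 10 passed the test, against 25.2% of 19199 genes called higher in muscle, with log2 fold changes from 3.15 ± 0.31 for Gpi1 (edgeR, adjusted p = 2.37e-07) to 6.03 ± 1.32 for Pgam2 (adjusted p = 0.00100). Eno3 followed with 5.12 ± 1.51 (adjusted p = 0.00830) and Aldoa with 4.90 ± 0.87 (adjusted p = 0.000126). Gapdh had 4.83 ± 0.74, Pfkm 4.51 ± 1.26, Ldha 3.97 ± 0.53, Pgk1 3.94 ± 0.38, Pkm 3.61 ± 0.57 and Tpi1 3.32 ± 0.80. The size of these values depends on the scaling, because the median of all genes was -0.35 with TMM and -2.78 with library totals. Relative to that median the 10 genes stood 3.50 to 6.38 higher with TMM and 3.53 to 6.50 higher with library totals. With library totals the values themselves were 0.75 to 3.72 and 7 of the 10 passed.

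In TPM, which compares genes per length within a library, the groups overlapped for several genes. Eno3 had 1667, 1223 and 1381 TPM in sham muscle, against 763.5, 10.44 and 91.6 TPM in sham skin. Pgam2 had 1040, 844.4 and 742.8 TPM in sham muscle, against 236.2, 6.868 and 42.27 TPM in sham skin. Both muscle forms, like Pfkm, were highest in the skin library rich in muscle markers and did not reach the muscle range there. Gpi1 averaged 315 ± 49.3 TPM in sham muscle and 356 ± 166 TPM in sham skin (SD, n = 3 each), so its direction in TPM was the opposite of that in the fit. Tpi1, Pkm and Ldha also overlapped between the tissues in TPM. Without the 2 muscle-rich skin libraries, a choice made after seeing the data, the fitted log2 fold change was 6.98 for Pfkm, 7.97 for Eno3 and 8.203 for Pgam2.

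The order of the genes by TPM in sham muscle was Aldoa (6925 ± 749), Gapdh (3140 ± 338), Eno3 (1424 ± 225), Pgam2 (876 ± 151), Pkm (840 ± 135), Pfkm (718 ± 35.2), Ldha (699 ± 119), Gpi1 (315 ± 49.3), Pgk1 (174 ± 26.4) and Tpi1 (97.4 ± 25.5). Pgam2, Pkm, Pfkm and Ldha could not be ranked, since the ranges of neighbours overlapped. The ranges of the other neighbours did not overlap. In sham skin Aldoa and Gapdh also led, with 1314 ± 1305 and 1052 ± 1053 TPM, and every pair of neighbours overlapped.

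**Figure D4:**
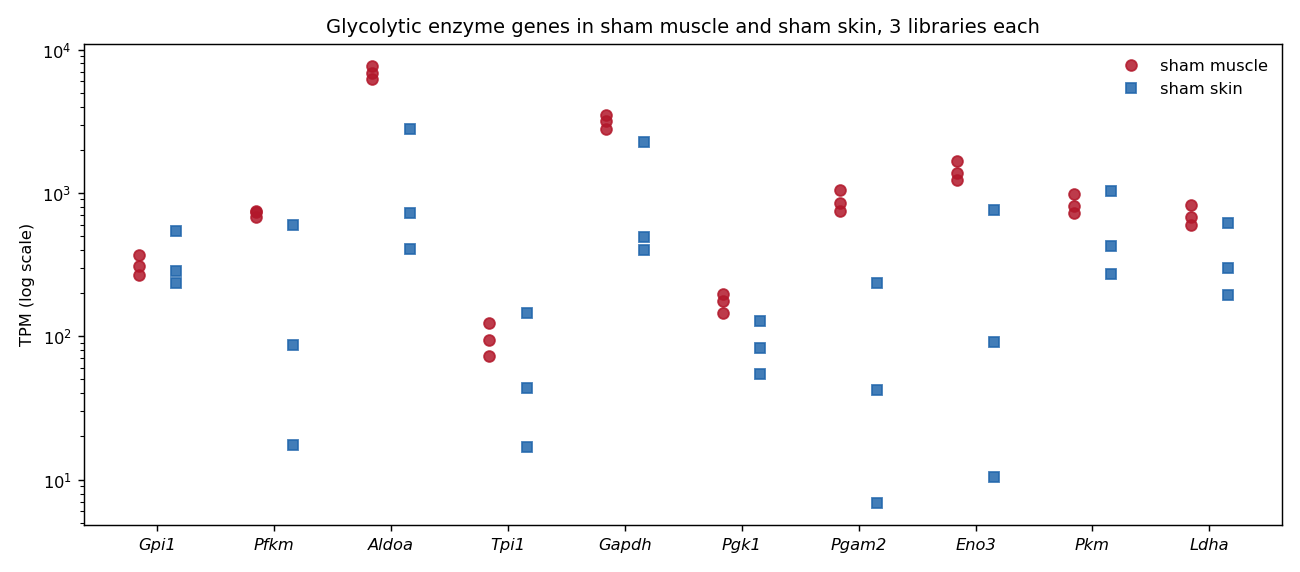
TPM on a log axis of each gene in the 3 sham muscle and the 3 sham skin libraries. Muscle points sit close together, such as 1223 to 1667 TPM for Eno3, whereas skin points spread widely, 10.44 to 763.5 TPM for Eno3.

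In skin, Pfkm, Eno3 and Pgam2 ran with the fast muscle markers of each library. Pfkm had 84.9, 945.3, 94.9 and 31.4 CPM in FLASH, 115.6, 168.9 and 35.1 CPM in CONV and 890.5, 18.4 and 101.8 CPM in sham. The 2 libraries with the highest values were FLASH replicate 2 and sham replicate 1, those rich in fast muscle markers. Within the other 8 libraries Pfkm still ran with the marker score (the mean log2 CPM of the 15 markers), with Pearson r = 0.985 and Spearman rho = 1 (exact permutation test, two-sided, adjusted p over 10 genes = 0.000124 and 0.000248). Eno3 had r = 0.992 and rho = 1 (exact permutation, adjusted p = 0.000124 and 0.000248), and Pgam2 r = 0.937 and rho = 0.976 (exact permutation, adjusted p = 0.000661 and 0.00132). Without the 2 of these libraries farthest from the median score, r was 0.986 for Pfkm, 0.983 for Eno3 and 0.763 for Pgam2. For the other 7 genes r was 0.362 to 0.737, rho 0.524 to 0.738, and 0 of the 7 passed after adjustment. Aldoa had the highest r of these, 0.737, and 0.554 without the 2 libraries. The 8 libraries come from all 3 groups, and the analysis within them was chosen after seeing the data.

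**Figure D5:**
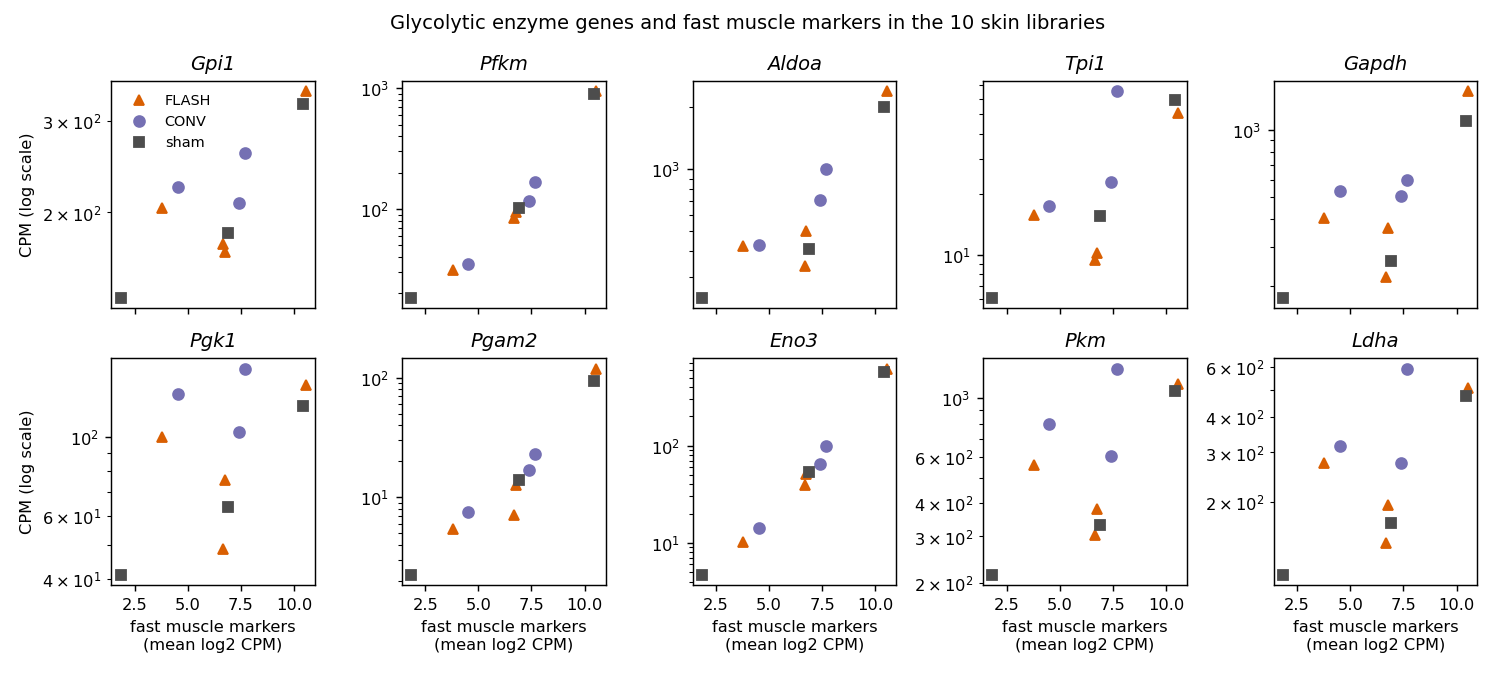
Level of each gene in the 10 skin libraries (CPM, log axis) against the mean log2 CPM of 15 fast muscle markers. Triangles are FLASH, circles CONV and squares sham. Pfkm, Eno3 and Pgam2 have their lowest values, 18.4, 4.67 and 2.24 CPM, in the library with the lowest score and their highest in the 2 with the highest scores.

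No gene of the 10 passed between treatment groups in skin. In FLASH against sham, CONV against sham and FLASH against CONV 0 of 10 passed by edgeR, as did 0% of all genes. The medians of the log2 fold changes rested on the 2 muscle-rich libraries. For FLASH against sham the median was 0.05 with them and 0.32 without them, for CONV against sham 0.10 with and 1.175 without, and for FLASH against CONV 0.06 with and -0.76 without. Without the disagreeing libraries the median was 0.01 for FLASH against sham, -0.11 for CONV against sham and 0.26 for FLASH against CONV. In these 3 comparisons 0 of the 10 had an unadjusted p under 0.05, against 0.659% of all genes for FLASH against sham, 20.15% for CONV against sham and 12.7% for FLASH against CONV. DESeq2 called 0 of the 10 in each, against 0.02% of all genes for FLASH against sham, 8.14% for CONV against sham and 2.28% for FLASH against CONV. In CONV against the other 7 skin libraries 0 of 10 passed, against 1.65% of all genes, and 0 had an unadjusted p under 0.05, against 23.4% of all genes. DESeq2 called 0 of the 10, against 10.3% of all genes, and the direction differed between genes. Eno3 had a log2 fold change of -1.69 ± 1.496 (edgeR, adjusted p = 0.510) and Pfkm -1.54 ± 1.29 (adjusted p = 0.483), whereas Pkm had 0.66 ± 0.51 (adjusted p = 0.450) and Pgk1 0.62 ± 0.35 (adjusted p = 0.306).

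Without the 2 muscle-rich libraries, all 10 values of CONV against the rest were above 0, from 0.37 ± 0.14 for Gpi1 (edgeR, adjusted p = 0.250) to 1.57 ± 0.45 for Tpi1 (adjusted p = 0.204), and 0 passed, with 0% of all genes called by edgeR in that fit. Pkm then had 1.27 ± 0.32 and Ldha 1.09 ± 0.33. Pkm had 601.5, 1289 and 796.3 CPM in CONV, against 303.8, 380.7 and 558.2 CPM in the 3 remaining FLASH and 214.7 and 330.6 CPM in the 2 remaining sham libraries. Ldha had 276.3, 594.1 and 315.7 CPM in CONV, against 143.4, 195.5 and 275.3 CPM in FLASH and 110.6 and 168.6 CPM in sham. The CONV libraries of both genes lay above these 5 others, as for 6 of the 10 genes (also Gapdh, Pgk1, Tpi1 and Gpi1), against 5.34% of all genes. Leaving out the 2 libraries was a choice made after seeing the data, and they were the highest outside CONV for these 6 genes. Against all 7 others, 0 of the 10 genes had CONV above, beside 3.855% of all genes. The 5.34% is therefore not a matched background for the 6. In CONV skin, neutrophil markers summed to 283.1 to 1246 CPM and fibroblast markers to 14630 to 43890 CPM, against 29.22 to 148.1 and 9069 to 12110 CPM in FLASH and 32 to 43.42 and 7887 to 9568 CPM in sham. Macrophage markers summed to 574.6 to 1406 CPM in CONV, 260.8 to 660 CPM in FLASH and 276.9 to 525.2 CPM in sham. Keratinocyte markers summed to 9238 to 52910 CPM in CONV, 14610 to 23160 CPM in FLASH and 14360 to 19270 CPM in sham, with the highest sum in CONV replicate 2. All 12 adipocyte markers had a log2 fold change below 0 in CONV against all 7 others, with a median of -1.06. The part of these cell types in the skin levels was not tested.

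The difference between muscle and skin in the response was tested as an interaction, and 0 of the 10 passed for FLASH (0% of all genes) or for CONV (0%), with 0 of the 10 at an unadjusted p under 0.05 in either, against 1.93% of all genes for FLASH and 14.3% for CONV. DESeq2 also called 0 of the 10 in both, against 0.0313% of all genes for FLASH and 1.37% for CONV. In that DESeq2 fit Pfkm, Aldoa and Eno3 had no adjusted p between the sham tissues, so its 0 may not rest on all 10 genes. The median log2 difference, muscle minus skin, was -0.20 for FLASH and -0.48 for CONV. Without the 2 muscle-rich skin libraries it was -0.44 for FLASH and -1.45 for CONV. For FLASH it was -0.34 by library name and -0.47 without the disagreeing libraries. In the latter case muscle kept only sham replicate 1 and FLASH replicate 4 of these groups.

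Across the 10 muscle libraries, with the differences between groups left in, 8 of the 10 genes had pairwise Pearson correlations of log2 CPM of 0.67 to 0.98. Pgk1 and Tpi1 were set aside here after their values were seen. All 45 correlations ran from -0.05 (Pfkm with Pgk1) to 0.98 (Eno3 with Ldha), with a median of 0.81. They share libraries, depth and scaling, and are given as a description. Among the genes whose log2 CPM was most like the mean profile of the 10 over the 10 muscle libraries were Adipor1 (r = 0.952), an adiponectin receptor, Tnni2 (0.950), the fast muscle troponin I, Myoz1 (0.950), a Z-disc protein of fast fibres, and Stradb (0.947), a pseudokinase. Over the 10 skin libraries they included Rilpl1 (r = 0.978), Neurl1a (0.977) and Chchd10 (0.960), a mitochondrial protein.

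Other genes of the pathway were described from 5 lists written with earlier results known. In muscle CONV against the other 7, no gene of the lists passed, and the smallest adjusted p of any was 0.218. Of the other isoforms of these enzymes 7 of 15 were tested, 6 with a value above 0 and 1 below, and the smallest p was that of Eno1, the widely expressed enolase (log2 fold change 0.31 ± 0.14, edgeR, adjusted p = 0.413). Among 11 tested genes of glucose uptake, hexokinases and lactate export, 4 lay above 0 and 7 below, led by Slc2a1, the basal glucose transporter (0.68 ± 0.21, adjusted p = 0.218). Among 19 genes of glycogen metabolism 8 lay above 0, and the smallest p was that of Gyg, glycogenin (-0.20 ± 0.10, adjusted p = 0.438). Of 18 tested genes that regulate glycolytic flux or its side routes 9 lay above 0, with Gpd2, the mitochondrial glycerol phosphate dehydrogenase, first (-0.37 ± 0.12, adjusted p = 0.249). Of 16 regulators 8 lay above 0, with Mef2d, a muscle transcription factor, first (-0.20 ± 0.08, adjusted p = 0.359).

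In skin CONV against the other 7, 2 of 12 tested genes of the list of glucose uptake, hexokinases and lactate export rose, against 1.65% of all genes called in that comparison, and no gene of the other lists passed. Slc2a3, a glucose transporter of high affinity found in neurons and white blood cells, had 15.4, 66.9 and 34.9 CPM in CONV, against 9.33 to 13.4 CPM in FLASH and 10.2 to 15.4 CPM in sham. CONV replicate 1 was within 0.1 CPM of the highest sham library, and the other 2 lay above all others. The log2 fold change was 1.74 ± 0.33 (edgeR, adjusted p = 0.0388). Hk3, the hexokinase of white blood cells, had 4.46, 20.3 and 19.6 CPM in CONV, against 1.80 to 6.44 CPM in FLASH and 1.88 to 2.59 CPM in sham, and a log2 fold change of 2.37 (edgeR, adjusted p = 0.0449). Both calls were lost without the 2 muscle-rich libraries (adjusted p = 0.197 and 0.199), without the libraries whose names disagree (adjusted p = 0.231 and 0.236) and on leaving out most single libraries. The neutrophil and macrophage marker sums given above stood in the same CONV libraries. The smallest p of the other lists were those of Eno1 (1.31 ± 0.33, adjusted p = 0.0705), Ppp1r3d, a glycogen-targeting phosphatase subunit (1.46 ± 0.34, adjusted p = 0.0590), Pfkfb4, which makes the activator of phosphofructokinase (1.00 ± 0.22, adjusted p = 0.0525), and Epas1, a hypoxia factor (1.31 ± 0.35, adjusted p = 0.0760).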

How the data were processed

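RNA from muscle and skin was sequenced as 20 libraries with a stranded total RNA kit after ribosomal RNA removal, per the labels' protocols. The deposited files give an estimated count and a TPM value per transcript, made by the authors with kallisto 0.5.0 on mm10, per the submitters' processing notes. Transcripts were matched to GENCODE M21 by identifier without version (98.5% of 116116 matched), and estimated counts were summed to 35579 genes and rounded. GENCODE gives the name Aldoa to 2 gene IDs, and the second, with 0.2365% to 0.9772% as many counts, was kept apart. kallisto divides reads between near-identical sequences, so counts of genes with pseudogene copies, such as Gapdh, are uncertain.

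Gene counts were tested in R 4.3.3 by the quasi-likelihood method of edgeR 4.0.16, with TMM, filterByExpr and Benjamini-Hochberg adjustment over all genes tested, threshold 0.05, with DESeq2 1.42.0 as an alternative. It was tested on simulated data. SE is the absolute log2 fold change over the square root of F. Groups followed the GEO record of each file. Alternatives were assignment by library name, no disagreeing libraries, other scaling, no filter, a replicate block, each library left out, a fast muscle marker covariate and no muscle-rich skin libraries. No pair of libraries within a group had identical values or agreed within sampling noise (chi-square 8.53 to 427 per degree of freedom), so none was treated as a repeat deposit of another. The 10 genes and all lists were chosen with earlier results of these data known. Named genes were the 10 members in every comparison, listed pathway genes past the threshold in muscle or in skin CONV against the rest, the gene of smallest p in each other list, and the 5 genes most like the members per tissue, of which some are not reported here. Intervals are not given for counts, and depth limits low genes such as Tpi1.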

Additional observations from a re-analysis of the deposited data

Results flagged for a closer look

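In the 4 FLASH skin libraries, replicate 2 stood far above the other 3 for 6 of the 10 genes. Its gap to the next library divided by the range of the 4 was 0.847 to 0.937, above the critical value of Dixon's test. It had 945.3 CPM of Pfkm, 2385 CPM of Aldoa, 1493 CPM of Gapdh, 118.9 CPM of Pgam2, 617.4 CPM of Eno3 and 50.66 CPM of Tpi1. The next highest FLASH library had 94.9, 501.7, 404, 12.6, 50.5 and 15.8 CPM of these genes. This library is 1 of the 2 skin libraries rich in fast muscle markers. In the 4 FLASH muscle libraries 0 of the 10 genes met the same criterion. Chance gives such a gap in about 1 in 20 groups, and the 6 genes share 1 library.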

How the results depend on the processing

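Sham muscle against sham skin kept all 10 values above 0 under every alternative run. All 10 passed whichever single library was left out, 7 passed with library totals, 7 under DESeq2, which gave no adjusted p for Pfkm, Aldoa and Eno3, and 6 passed without libraries of disagreeing name, where fewer samples remained. In muscle, DESeq2 called 2 genes for CONV against the other 7, 1 for CONV against sham and 1 for FLASH against CONV, and assignment by library name called 1 for CONV against sham. Without libraries of disagreeing name, the median log2 fold change of the 10 was -0.42 for FLASH against sham, against -0.10 with all libraries. The value of -0.42 compared FLASH replicate 4 with sham replicate 1 alone. The adjusted p of Pfkm for CONV against the other 7 ran from 0.000762 to 0.774 over the alternatives. The replicate block moved no member across the threshold, and replicate numbers did not pair the samples (correlations of deviations -0.235 to 0.213 in muscle, -0.711 to 0.517 in skin). Without the 2 muscle-rich skin libraries the CONV values against other skin turned positive: 0.64 for Pfkm, 0.85 for Aldoa, 0.89 for Gapdh, 0.90 for Pgam2 and 0.87 for Eno3. With the fast muscle marker covariate, Aldoa turned to 0.10 and Gapdh to 0.34, and with the replicate block Gapdh to 0.007554. Without disagreeing names Gpi1 turned to -0.02734 in that comparison. Pgk1 turned to -0.02168 by library name and -0.15 without disagreeing names for CONV against sham in muscle, and to 0.00228 with the replicate block for FLASH against CONV, where Pgam2 turned to -0.02105 without disagreeing names. On leaving out single libraries, Pgk1 ranged from -0.05122 to 0.11 and Tpi1 from -0.59 to 0.02268 for CONV against sham in muscle. Pgk1 ranged from -0.09315 to 0.01381 for FLASH against CONV and from -0.0228 to 0.07194 for CONV against the other 7. For CONV against other skin the ranges were -0.66 to 0.12 for Aldoa, -0.23 to 0.38 for Gapdh, -0.23 to 0.97 for Tpi1 and -0.01834 to 0.22 for Gpi1. Calls over all genes moved more than those of the 10. For muscle CONV against the other 7 edgeR called 8 genes, against 150 by DESeq2, 53 with no filter, 15 with library totals, 1 with the replicate block and 0 without disagreeing names, and 1 to 89 on leaving out single libraries, with 89 without CONV replicate 1. For muscle CONV against sham it called 1, against 164 by library name, 49 by DESeq2 and 23 with no filter. For skin CONV against other skin it called 331, against 2071 by DESeq2, 1292 with the replicate block, 105 with library totals and 0 without the 2 muscle-rich or the disagreeing libraries. Leaving out single libraries gave 0 to 1454, with 1454 without FLASH replicate 4. DESeq2 called 1630 genes for skin CONV against sham and 457 for skin FLASH against CONV, where edgeR called 0. The causes were not tested.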
